A study of Mus musculus with 22 samples.

Results

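Mature Endoderm cells are one of 25 cell types named in single-cell RNA data from mouse gastruloids, and they were taken here as the cells carrying that name in the authors' deposited cell annotation. There were 2740 such cells among 77674 annotated cells. A gastruloid barcode placed 2204 of them in a single gastruloid, and 95 of 136 gastruloids held at least 1.

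Definitive endoderm forms during gastrulation when cells leave the anterior primitive streak, lose the streak factors Eomes and Lhx1 and express Sox17 and Foxa2. It becomes an epithelial gut tube that is later regionalised, with Otx2 and Pax9 in anterior and foregut endoderm and Cdx2 in the hindgut. Visceral endoderm is a separate extraembryonic lineage that shares many of these factors and secretes proteins such as Ttr, Afp and Apoe.

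Gastruloids are aggregates of mouse embryonic stem cells that break symmetry and form derivatives of the germ layers in culture. All came from 1 wild-type line, E14Tg2A: 300 cells were seeded per well, aggregated for 48 hours and then pulsed with 3 µM CHIR99021, a GSK3 inhibitor that activates Wnt signalling. The labels name no other treatment and no engineered allele in any group. In MULTI-seq, each gastruloid's cells receive a lipid-anchored DNA barcode before pooling, so that cells can be returned to their gastruloid. MULTI-seq 3 covered day 3 with 24 gastruloids and each of days 3.5, 4, 4.5 and 5 with 16. MULTI-seq 2 had 11 gastruloids of day 4 and 12 of day 4.5, all in 1 pool, and MULTI-seq 1 had 24 of day 5. Lanes of MULTI-seq 3 held days 3.5 and 4 together, or days 4.5 and 5 together. Each such set is called a pool here, though the labels name no pool in MULTI-seq 3. The deposited annotation gives these sets and the day 3 lanes different experiment numbers. Between them, day and experiment number cannot be told apart. The gastruloid was the replicate, and lanes were splits of a pool.

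Across the 18 lanes, the median cell held between 8287 and 38443 UMIs (unique molecular identifiers, 1 per captured RNA molecule), and the median endoderm cell between 8272 and 51792. Mitochondrial transcripts took 2.21% to 2.92% of the median endoderm cell's UMIs in MULTI-seq 3 lanes and 5.15% to 5.73% in the other lanes. Of the barcodes of annotated cells, 732 of 76935 occurred in more than 1 lane, and 57 endoderm cells carried such a barcode. Endoderm cells called as barcode doublets or without a barcode call were left out of comparisons between gastruloids. The share of cells kept differed between endoderm and all cells. In MULTI-seq 3 it was 62.0% against 47.8% at day 3, 90.8% against 81.1% at days 3.5 and 4, and 84.7% against 88.0% at days 4.5 and 5. In pool B of MULTI-seq 2 it was 91.1% against 89.0%, and in MULTI-seq 1 89.2% against 99.0%. What this loss does to the shares per gastruloid was not tested. No cell of MULTI-seq 1 carried a doublet call, so doublets were not treated in the same way there.

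The endoderm label went with its marker genes, which is a description, since the cells were named from the same counts. Sox17 (ENSMUSG00000025902), an endoderm-specifying HMG-box factor, had at least 1 UMI in 66.2% of Mature Endoderm cells (95% exact binomial interval 64.4 to 68.0) after each cell was thinned to 5000 UMIs. Foxa2 (ENSMUSG00000037025), a pioneer forkhead factor of endoderm and axial mesoderm, had one in 42.9%. Epcam (ENSMUSG00000045394), an epithelial adhesion protein, had one in 90.5%, and Trh (ENSMUSG00000005892), the precursor of thyrotropin-releasing hormone, in 92.7%. Without thinning, the 4 shares were 95.5%, 90.7%, 98.7% and 97.1%. Thinning left out 4 of the 2740 cells. In Mature Somites, a mesoderm type that should lack these genes, the thinned shares were 0.0652%, 0.206%, 1.95% and 0.825%. The median depth was 35773 UMIs in endoderm and 22316 in somite cells. Intervals here cover counting error only.

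Both nearest types shared part of this set. Foxa2 had a UMI in 46.0% of thinned Notochord cells and in 45.7% of Anterior Primitive Streak cells, whereas Sox17 had one in 1.61% and 38.8%. Median depth was 21532 UMIs in Notochord and 27721 in Anterior Primitive Streak cells. Noto, a notochord factor, had one in 0.292% of endoderm cells and 16.0% of Notochord cells. Summed over a gastruloid's endoderm cells and scaled to its total UMIs (CPM, the usual library-size scaling), the 6 notochord markers had a median of 136 CPM over 46 gastruloids with at least 10 endoderm cells, against 1039 CPM in Notochord cells. The 10 somite markers summed to 24.1 CPM, against 1574 in Mature Somites, and the 8 neural markers to 35.9 CPM, against 517 in Late Spinal Cord. The 8 endothelial markers summed to 4.49 CPM and the 6 germ cell markers to 1.58 CPM.

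The genes that stood out most against the other types were Spink1, Gpx2 and Trh. These ratios describe a cluster defined from the same counts and carry no test. Spink1, a secreted trypsin inhibitor, averaged 559 CPM ± 338 (SD, n = 46 gastruloids), 195 times the mean of the next highest type, Head Mesoderm. Gpx2, the gastrointestinal glutathione peroxidase, averaged 180 CPM ± 79.1 and Trh 2458 CPM ± 951, or 44.4 and 16.4 times their mean in Notochord cells. Of 2741 genes with at least 50 CPM, 30 were at least 2 times as high as in every one of 21 other types. The 15 with the largest ratios also held the keratins Krt7 and Krt18, the claudin Cldn7, the polarity gene Crb3, the serine protease Tmprss2, the lactate transporter Slc16a1, the surface glycoprotein Emb and carbonic anhydrase Car4, with Fhl2, Cpm, Rab15 and Sorl1. The identity factors stood out less: Sox17 averaged 269 CPM ± 55.5 against 206 in Anterior Primitive Streak cells (n = 4), and Foxa2 129 CPM ± 24.9 against 169.

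The promoters of 4 genes are shown because Trh and Gpx2 led the type, Epcam marked nearly all its cells and Cdx2 changed with day in 2 experiments. Each run is the 250 bases before the start site on the gene's strand, from RefSeq on GRCm38.p6. Capitals mark GGGCGG or its reverse complement (the GC box bound by Sp factors) in Trh and Epcam, and the reverse complement of TGTTTAC (a forkhead motif) in Cdx2.
Trh, chr6:92244651-92244900, minus strand: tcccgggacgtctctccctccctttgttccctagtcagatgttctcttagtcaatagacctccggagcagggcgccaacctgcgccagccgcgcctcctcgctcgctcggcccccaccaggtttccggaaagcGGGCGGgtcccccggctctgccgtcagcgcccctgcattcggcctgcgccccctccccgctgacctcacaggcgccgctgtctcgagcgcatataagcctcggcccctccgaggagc
Gpx2, chr12:76795555-76795804, minus strand: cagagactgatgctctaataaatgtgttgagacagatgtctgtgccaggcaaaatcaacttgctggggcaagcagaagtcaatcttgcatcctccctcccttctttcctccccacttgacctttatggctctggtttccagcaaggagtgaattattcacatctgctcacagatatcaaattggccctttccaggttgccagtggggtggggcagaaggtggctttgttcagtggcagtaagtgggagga
Epcam, chr17:87635729-87635978, plus strand: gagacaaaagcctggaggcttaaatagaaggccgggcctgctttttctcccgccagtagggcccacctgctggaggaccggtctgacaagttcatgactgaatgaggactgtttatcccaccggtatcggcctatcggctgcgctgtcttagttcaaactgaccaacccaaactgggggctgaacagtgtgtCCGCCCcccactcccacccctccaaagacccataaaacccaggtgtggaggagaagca
Cdx2, chr5:147307250-147307499, minus strand: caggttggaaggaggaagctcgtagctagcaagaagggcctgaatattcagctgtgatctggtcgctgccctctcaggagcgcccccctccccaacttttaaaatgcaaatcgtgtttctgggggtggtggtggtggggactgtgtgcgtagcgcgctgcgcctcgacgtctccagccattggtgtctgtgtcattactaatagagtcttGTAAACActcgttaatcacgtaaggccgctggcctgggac
GC content was 68.8% for Trh, 49.2% for Gpx2, 56.4% for Epcam and 55.2% for Cdx2, against a median of 52.4% over 32817 promoters. On either strand, GGGCGG occurred in 32.7% of all promoters of this length and TGTTTAC in 3.16%. Also searched on both strands were the GATA factor motif AGATAA (in 9.99% of promoters), the SOX motif AACAAT (9.42%), the T-box motif AGGTGTGA (1.12%) and the TATA box TATAAA (12.4%). A match is a description of letters, not a bound site.

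In the MULTI-seq 3 gastruloids, endoderm was rare before day 4 and its mean share was highest at day 4, and gastruloids of the same day differed widely. In MULTI-seq 3 the mean endoderm share of a gastruloid's cells was 0.853% ± 2.22 on day 3 (SD, n = 24) and 0.674% ± 1.12 on day 3.5 (n = 16). It stood at 7.73% ± 5.50 on day 4 (n = 16), 3.29% ± 4.19 on day 4.5 and 4.18% ± 4.27 on day 5 (n = 16 for both). From day 3.5 to day 4, within a pool, the mean rose by 7.06 percentage points (2-sided permutation test, p = 1e-05, adjusted over 20 cell types 3.33e-05). The day 3 mean rested on 1 gastruloid, which held 24 of the 49 endoderm cells; without it the mean was 0.428% ± 0.783 (n = 23). In MULTI-seq 2 the share was 5.43% ± 4.53 at day 4 (n = 11) and 2.42% ± 2.65 at day 4.5 (n = 12), and in MULTI-seq 1 it was 1.79% ± 2.27 at day 5 (n = 24). In the 10X experiment, with 1 lane a day and no gastruloid barcodes, it was 1.77% at day 3 (95% exact binomial interval 1.33% to 2.30%) and 2.30% at day 4 (1.74% to 2.97%).

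In MULTI-seq 3, no endoderm cell was seen in 13 of 24 gastruloids of day 3 and 8 of 16 of day 3.5. On day 4 that held for 1 of 16, on day 4.5 for 7 of 16 and on day 5 for 0 of 16. The same held for 2 of 11 and 3 of 12 gastruloids of MULTI-seq 2 and 6 of 24 of MULTI-seq 1. With the cells captured, a count of 0 allowed shares of up to 0.656% in the day 4 gastruloid, of 0.756% to 2.46% in those of day 4.5 and of up to 3.53% in those of day 3.5. Both such gastruloids of MULTI-seq 2 at day 4 held few cells, and a count of 0 allowed 4.92% and 5% there. The highest MULTI-seq 3 shares were 10.6% on day 3, 3.77% on day 3.5, 20.3% on day 4, 14.0% on day 4.5 and 14.3% on day 5. The variance between gastruloids was 5.78 to 39.4 times the binomial counting variance, whereas that between lanes of the same gastruloid was 0.395 to 2.33 times it.

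**Figure D1:**
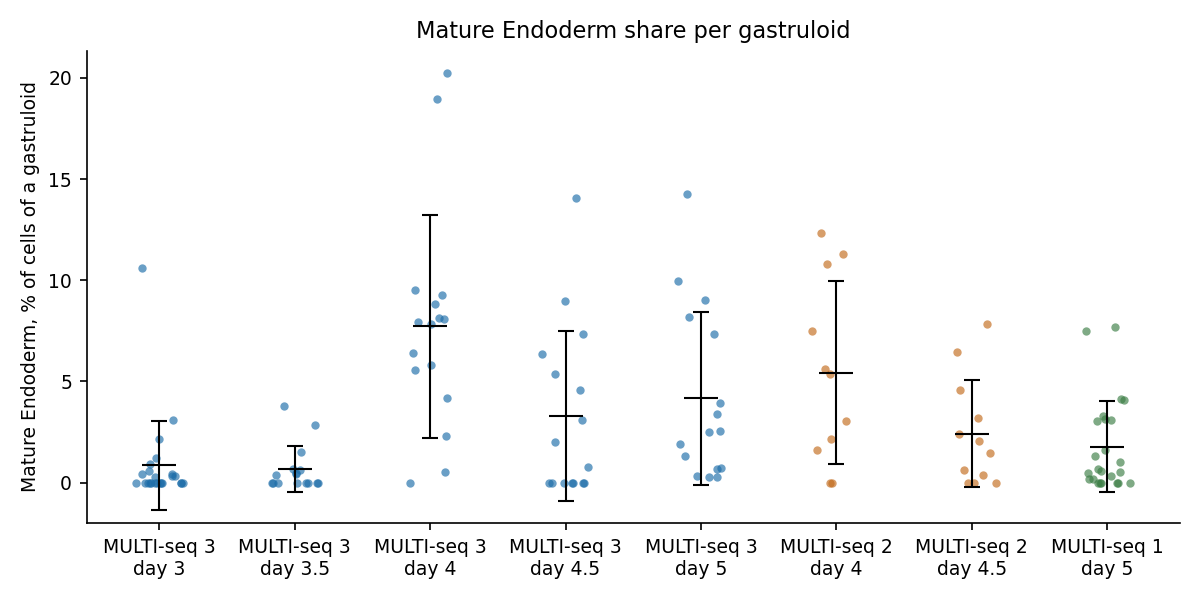
Mature Endoderm share of each gastruloid's cells (y axis, percent) by experiment and day (x axis); each point is 1 gastruloid, and bars give the mean and SD. Shares at day 4 of MULTI-seq 3 reached 20.3%, and every day's group spans a wide range.

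The mean endoderm share fell by 4.44 percentage points between days 4 and 4.5 of MULTI-seq 3 (2-sided permutation test, p = 0.0141, adjusted over 17 cell types 0.0240), with 14 of 16 gastruloids below the day 4 median. These days came from different pools, so day and pool cannot be told apart. The pools also differed in the share of endoderm cells kept after barcode calls (90.8% and 84.7%). The call was lost for cells counted by embryo-mapped gut or endoderm type (adjusted p = 0.123) and with edgeR on cell numbers (adjusted p = 0.155). The MULTI-seq 2 change, within a pool, was -3.02 percentage points and did not pass (permutation p = 0.0637, adjusted 0.105). It was -1.29 by embryo-mapped type (adjusted p = 0.402), and it passed with a minimum of 100 cells, which left 6 and 11 gastruloids (-5.02, adjusted p = 0.0269), and without lane 2 (-4.11, adjusted p = 0.0488). Between days 4.5 and 5 of MULTI-seq 3 the difference was 0.889 percentage points (adjusted p = 0.768). At day 5 the share was 2.39 percentage points higher in MULTI-seq 3 than in MULTI-seq 1, which passed before adjustment only (permutation p = 0.0246, adjusted 0.136). Differences between MULTI-seq 3 and 2 were 2.30 percentage points at day 4 (adjusted p = 0.553; 0.206 with a minimum of 100 cells and 1.22 without lane 2 of MULTI-seq 2) and 0.869 at day 4.5 (adjusted p = 0.786).

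Endoderm was scarce in gastruloids rich in neural cells. A gap of over 25% of the range, with at least 2 gastruloids on each side, split most days by neural share; this rule was set after the shares had been seen. At day 4 of MULTI-seq 3, 14 gastruloids with 0.0963% to 3.86% neural cells had a median endoderm share of 8.02%, and the 2 with 69.6% and 73.7% had 0.513% and 0%. At day 4.5, the 9 with 2.84% to 29.6% neural cells all held endoderm (0.794% to 14.0%, median 5.38%), and none of the 7 with 61.6% to 95.7% held an endoderm cell. At day 5, the 12 with 6.12% to 44.6% had 0.693% to 14.3% (median 3.67%), and the 4 with 66.3% to 81.2% had 0.290% to 0.719%, so that both sides overlapped slightly.

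The MULTI-seq 2 gastruloids were also divided by neural share, and the endoderm shares of both sides overlapped there too. At day 4 all 8 with few neural cells held endoderm (1.64% to 12.4%, median 6.55%), and of the 3 others 2 had none and 1 had 2.17%. At day 4.5 all 7 with few neural cells held endoderm (0.631% to 7.84%), and of the 5 others 3 had none and the highest had 1.45%. Neural share was taken among cells other than endoderm. These separations are descriptions, since the split was drawn on the same gastruloids.

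**Figure D2:**
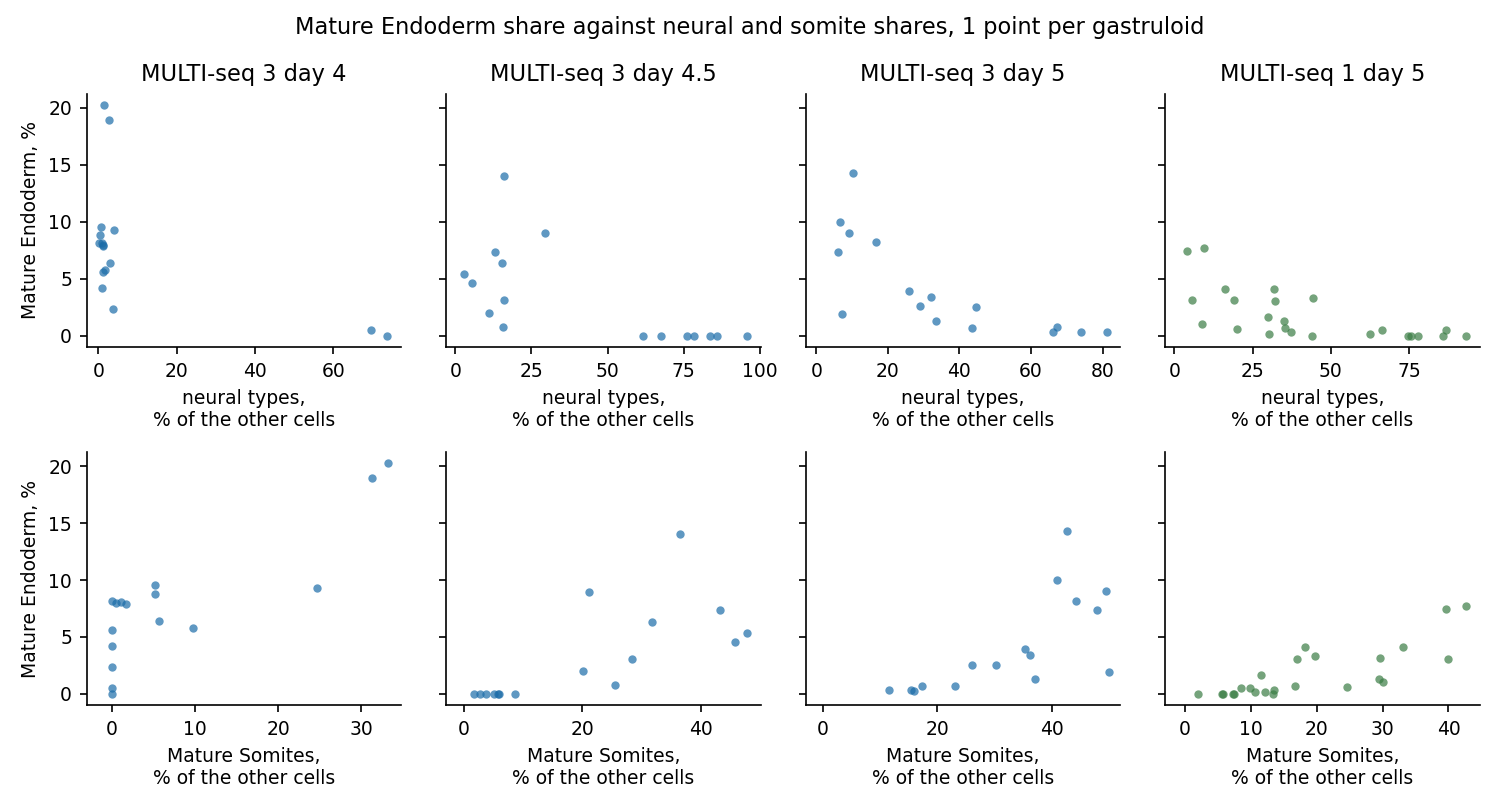
Mature Endoderm share (y axis, percent of a gastruloid's cells) against the share of neural types (top) and Mature Somites (bottom) among its other cells (x axis, percent), 1 point per gastruloid. At day 4.5 of MULTI-seq 3 the 7 gastruloids with 61.6% or more neural cells lie at 0% endoderm.

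Correlations were computed only over gastruloids that no such gap divided, or inside 1 side of it. Of 24 relations, 7 passed an adjusted p of 0.05 for Pearson's r and 4 for Spearman's rho (permutation tests). Neural and somite shares are parts of the same total, so relations to them are not independent. With the Mature Somites share, r at day 5 of MULTI-seq 3 was 0.70 (n = 16, permutation p = 0.00241, adjusted 0.0119; rho = 0.76, p = 0.00101, adjusted 0.00606; r = 0.78 without the 2 gastruloids farthest from the median). At day 4.5 the relation passed over all 16, but the gastruloids lay in 2 sets with a gap of 24.9% of the range between them, just under the rule. The 7 with 1.64% to 8.67% somite cells had no endoderm. Among the 9 with 20.2% to 47.9%, r was 0.24 (permutation p = 0.540) and rho 0.30 (p = 0.435), and r was 0.12 without 2. Among the 22 MULTI-seq 1 gastruloids with up to 4.13% endoderm, r was 0.67 with Mature Somites (permutation p = 0.00101, adjusted 0.0119; rho = 0.82, p = 5e-05, adjusted 0.0012; 0.68 without 2) and -0.61 with neural types (p = 0.00295, adjusted 0.0119; rho = -0.72, p = 0.00035, adjusted 0.0028; -0.60 without 2).

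In other relations rho did not pass, whether or not r did. Among the 12 day 5 gastruloids of MULTI-seq 3 with fewer neural cells, r with neural share was -0.70 (permutation p = 0.0123, adjusted 0.0421), but rho, -0.64, did not pass (p = 0.0283, adjusted 0.113); r was -0.68 without 2. Among the 14 with few neural cells at day 4, r was 0.01 (permutation p = 0.987, adjusted 0.987; rho = -0.13, p = 0.659, adjusted 0.753; -0.36 without 2). With the Notochord share, r was 0.72 at day 4.5 (n = 16, permutation p = 0.00298, adjusted 0.0119; rho = 0.47, p = 0.0714, adjusted 0.191), and this rested on 2 gastruloids, since r without them was 0.22. At day 5 it was 0.73 (n = 16, permutation p = 0.00178, adjusted 0.0119; rho = 0.56, p = 0.0261, adjusted 0.113; 0.64 without 2). In the other groups, whose gastruloids fell into separate sets, the relation to Notochord was taken within the larger set and did not pass. It was 0.28 in MULTI-seq 1 (n = 22, permutation p = 0.207, adjusted 0.373; rho = 0.03; 0.05 without 2) and 0.20 at day 4 of MULTI-seq 3 (n = 13, permutation p = 0.538, adjusted 0.679; rho = -0.04; 0.29 without 2). In MULTI-seq 2 it was 0.30 at day 4 (n = 8, permutation p = 0.454, adjusted 0.605; rho = 0.26; -0.13 without 2) and -0.07 at day 4.5 (n = 10, permutation p = 0.856, adjusted 0.934; rho = -0.13; -0.32 without 2).

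The authors' mapping of each cell to a mouse embryo atlas placed most endoderm cells in Anterior Primitive Streak, gut tube and regional gut. The mapping used the same transcriptomes, so its agreement with the label is a description. Of the 2740 cells, 2191 (80.0%) were mapped to a gut or endoderm type, against 12 of 74934 other cells. Of all cells mapped to Anterior Primitive Streak, 463 of 989 were named Mature Endoderm.

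The streak-mapped share did not move in 1 direction over all days. Of the 49 day 3 cells of MULTI-seq 3, 42.9% were mapped to Anterior Primitive Streak, 30.6% to visceral endoderm and 24.5% to gut tube, and 24 of these cells came from 1 gastruloid. At day 3.5 of MULTI-seq 3, the streak-mapped share of a gastruloid's endoderm was 92.9% and 95% in the 2 gastruloids with at least 10 endoderm cells. It averaged 29.0% ± 23.3 at day 4 (SD, n = 14), 14.1% ± 18.6 at day 4.5 (n = 7) and 1.77% ± 2.15 at day 5 (n = 9). In MULTI-seq 2 it averaged 24.2% ± 11 at day 4 (n = 4) and 5.71% ± 5.15 at day 4.5 (n = 3), and no such cell was found in the 6 MULTI-seq 1 gastruloids of day 5. Day 4 gastruloids were spread from 1.97% to 64.2%.

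From day 4 on, hindgut-mapped cells took the opposite course to streak-mapped cells. They averaged 2.08% ± 1.79 of a gastruloid's endoderm at day 4, 11.8% ± 7.74 at day 4.5 and 14.0% ± 7.27 at day 5 of MULTI-seq 3. Days 4 and 4.5 of MULTI-seq 3 came from different pools. In MULTI-seq 2 hindgut-mapped cells averaged 0.806% ± 1.61 (n = 4) and then 19.2% ± 9.29 (n = 3), and in MULTI-seq 1 16.6% ± 14.0 (n = 6). The MULTI-seq 2 days did not overlap, but the nearest gastruloids stood at 3.23% of 31 cells and 10% of 10 cells, so this rests on few cells. Midgut-mapped cells averaged 15.4% ± 6.56 at day 5 of MULTI-seq 3 and 29.9% ± 11 in MULTI-seq 1. Thyroid primordium was the mapped type of 4.73% ± 5.63 at day 5 of MULTI-seq 3. None of these shares was tested.

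**Figure D3:**
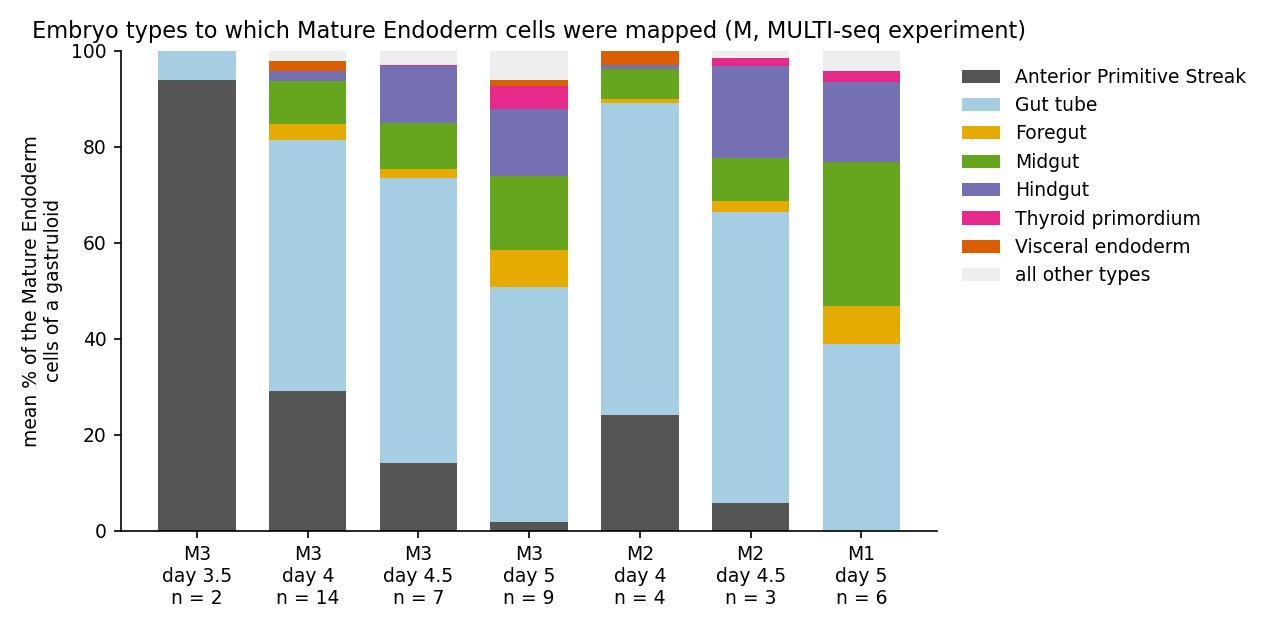
Mean share of a gastruloid's Mature Endoderm cells mapped to each embryo type (y axis, percent) by experiment (M, MULTI-seq) and day; n is the number of gastruloids with at least 10 endoderm cells. The streak-mapped share is 93.9% at day 3.5 and 1.77% at day 5 of MULTI-seq 3.

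At day 4 of MULTI-seq 3, the streak-mapped share was related to the endoderm share by rank only. The 2 with the most endoderm, 18.95% and 20.3%, stood apart and had streak-mapped shares of 7.98% and 1.97%. Among the other 12, r was -0.62 (permutation p = 0.0287, adjusted over 2 relations 0.0574) and rho -0.69 (p = 0.0165, adjusted 0.0330). Without 2 more gastruloids r was -0.46, and with at least 20 endoderm cells it was -0.52 and did not pass even before adjustment. At day 4.5 the relation did not pass (n = 7). There r was -0.54 (permutation p = 0.192, adjusted 0.192) and rho -0.36 (p = 0.445, adjusted 0.445), and r was 0.16 without 2.

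Regional genes divided the mapped classes in the pooled cells of MULTI-seq 3. Cdx2, the caudal homeobox factor, stood at 272 CPM in 106 hindgut-mapped cells (95% exact Poisson interval 258 to 287), 7.64 in midgut-mapped cells and 2.62 in foregut-mapped cells. Otx2, a head and anterior endoderm factor, stood at 1.80 CPM in hindgut-mapped cells, 151 in midgut-mapped cells, 274 in foregut-mapped cells and 329 in thyroid-mapped cells. T, the brachyury factor of streak and tail bud, was at 184 CPM in hindgut-mapped and 125 in streak-mapped cells, and Shh, a ligand of gut epithelium and notochord, at 88.4 and 11.2. Eomes was at 104 CPM in streak-mapped cells and 2.20 in hindgut-mapped cells, and Lhx1 at 267 and 12.0. These intervals cover counting error only, and the mapping itself used such genes. The classes pool days and gastruloids unequally, and cells without a single gastruloid call are included. In 1 day 4 gastruloid, 28.6% of 203 endoderm cells were foregut-mapped and 35.0% midgut-mapped. The means over the 14 gastruloids of that day were 3.32% and 8.96%.

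Nkx2-1, a factor of thyroid, lung and forebrain, had 0 UMIs in the 44 thyroid-mapped cells, which allows up to 1.68 CPM. Trh was at 358 CPM in these cells, against 3093 in streak-mapped cells and 1191 in hindgut-mapped cells. These values pool all days, which the classes share unequally: of the MULTI-seq 3 cells with a known day, 30 thyroid-mapped cells came from day 5, 1 from day 4.5 and 2 from day 4, whereas 8 streak-mapped cells came from day 5 and 227 from day 4. In 1 day 5 gastruloid 15.8% of 101 endoderm cells were thyroid-mapped.

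**Figure D4:**
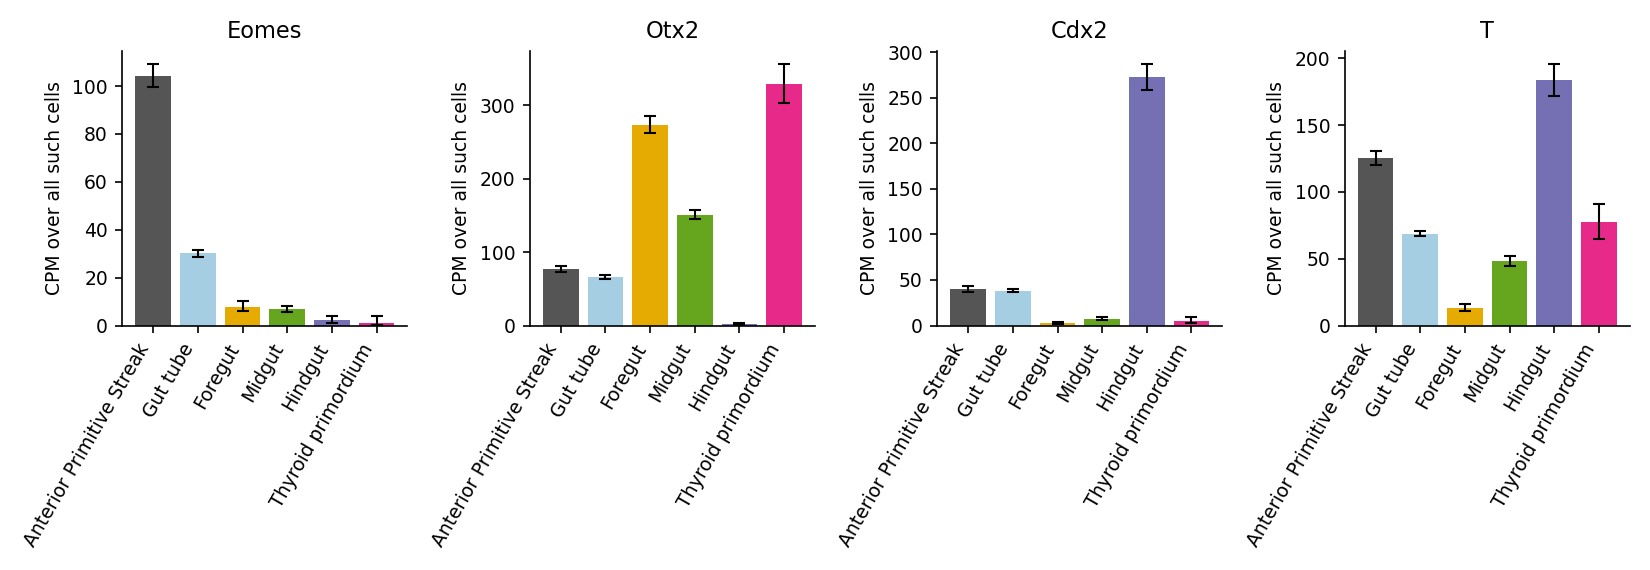
CPM over all Mature Endoderm cells of MULTI-seq 3 mapped to each of 6 embryo types (x axis) for Eomes, Otx2, Cdx2 and T (y axes, CPM); bars start at 0 and whiskers are 95% exact Poisson intervals of the counts. Cdx2 stands at 272 CPM in hindgut-mapped cells and 2.62 CPM in foregut-mapped cells.

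Single cells rarely held both regional factors. After thinning, Otx2 had a UMI in 17 of 383 cells with Cdx2 (4.44%) and in 31.3% of those without it, over cells placed in 1 gastruloid. With barcode doublets and cells of no gastruloid included, it was 22 of 468 (4.70%) and 31.5%. At day 5 the shares were 1.92% (2 of 104 cells) and 38.8% in MULTI-seq 3, and 1.64% (1 of 61 cells) and 51.2% in MULTI-seq 1. At day 4 they were 7.20% (9 of 125 cells) and 28.9% in MULTI-seq 3, and 21.4% (3 of 14 cells) and 17.98% in MULTI-seq 2. In Mature Somites Otx2 had a UMI in 0.934% and Cdx2 in 2.94% of thinned cells. Cells of 1 gastruloid are not replicates, and no test was made.

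A few cells were mapped to visceral endoderm, 54 in MULTI-seq 3. Together they held Ttr, a transthyretin marker of that lineage, at 111 CPM and Apoe at 746 CPM, while Afp was at 0 UMIs, which allows up to 1.47 CPM. The 19 from the day 3 lanes held 0 UMIs of Ttr, which allows up to 4.70 CPM, and the 35 of later days held 162 CPM. Of the 24 endoderm cells in the day 3 gastruloid with the most, 12 were mapped to Anterior Primitive Streak, 10 to visceral endoderm and 2 to gut tube.

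Between days 4 and 4.5, Eomes, Lhx1, Tdgf1, Pou5f1 and Dnmt3b fell in endoderm cells of both experiments, and Cdx2, Shh, Ptch1, Krt19 and Cdkn1c rose. UMIs were summed over each gastruloid's endoderm cells, and genes were tested with edgeR's quasi-likelihood test with Benjamini-Hochberg adjustment; adjusted p-values for genes below come from it, and levels are CPM with normalised library sizes. In MULTI-seq 2, 55 genes rose and 70 fell at day 4.5 (3 gastruloids against 4), 0.836% and 1.06% of 6579 tested, or 1.9% in either direction; DESeq2 called 20 and 24, a minimum of 5 cells gave 43 and 32, and no expression filter gave 86 and 143. In MULTI-seq 3, 1411 rose and 1222 fell (7 against 14), 14.2% and 12.3% of 9971 tested, or 26.4% in either direction. The latter count was 1734 without lane B and 1602 without lane C of the day 4.5 pool. A level over summed cells does not separate the number of expressing cells from the RNA per cell. In MULTI-seq 3 these days came from different pools, so day and pool cannot be told apart in its gene results.

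The streak regulators Eomes and Lhx1 fell in both experiments. Eomes, a T-box factor, was at 19.3, 68.8, 34.0 and 31.9 CPM in the 4 day 4 gastruloids of MULTI-seq 2 and 1.52, 6.38 and 10.4 CPM in the 3 of day 4.5. The groups did not overlap, as for 11.5% of all genes tested there, and the log2 change was -2.87 (SE 0.57, adjusted p = 0.00736). In MULTI-seq 3, Eomes ranged from 5.51 to 96.8 CPM (median 62.3) at day 4 and from 3.98 to 50.1 (median 10.6) at day 4.5. The groups overlapped, and the log2 change was -1.68 (SE 0.58, adjusted p = 0.0325). It lost the call without lane A, B or C of the day 4.5 pool (adjusted p 0.0760 to 0.162).

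Lhx1, a LIM homeobox factor of anterior streak, was at 27.4, 116, 112 and 44.1 CPM in MULTI-seq 2 at day 4 and 15.2, 8.504 and 41.6 CPM at day 4.5 (log2 change -1.99, SE 0.48, adjusted p = 0.0255). DESeq2 did not call it (adjusted p = 0.412). Its MULTI-seq 3 levels ran from 43.7 to 234 CPM (median 134) and then from 12.2 to 106 CPM (median 44.6), a log2 change of -1.39 (SE 0.37, adjusted p = 0.00677). The groups overlapped in both experiments. Tdgf1, the Nodal co-receptor Cripto, was at 11.3, 32.5, 46.1 and 31.9 CPM and then at 0 in all 3 day 4.5 gastruloids of MULTI-seq 2 (adjusted p = 0.00179). T went the other way in MULTI-seq 2, from 45.9, 37.5, 58.2 and 100.5 CPM to 172, 72.3 and 104 CPM (log2 change 1.13, SE 0.26, adjusted p = 0.0167), but DESeq2 did not call it (adjusted p = 0.558).

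As a list, streak genes had 1 member up and 3 down of 6 tested in MULTI-seq 2 (median log2 change -1.99), and 0 up and 4 down of 10 tested in MULTI-seq 3 (median -0.77). The median over all genes tested was -0.00183 and -0.000258. Among all genes tested, 0.836% rose and 1.06% fell in MULTI-seq 2, and 14.2% rose and 12.3% fell in MULTI-seq 3. Of the pluripotency genes, 3 of 4 tested fell in MULTI-seq 2 and 3 of 7 in MULTI-seq 3: in both, Pou5f1 (Oct4), Tdgf1 and the de novo methyltransferase Dnmt3b, which DESeq2 did not call in MULTI-seq 2 (adjusted p = 0.304). Pou5f1 was at 48.3, 36.3, 31.5 and 29.4 CPM at day 4 and 13.7, 6.38 and 13.9 CPM at day 4.5 of MULTI-seq 2, with no overlap (log2 change -1.74, SE 0.35, adjusted p = 0.00785).

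The endoderm factor genes fell in part. Sox17 was at 347, 354, 381 and 341 CPM and then at 261, 230 and 270 CPM in MULTI-seq 2, a log2 change of -0.50 (SE 0.11, adjusted p = 0.0148) with no overlap. Gata6, a GATA factor of endoderm, was at 70.8, 67.6, 61.9 and 61.3 CPM and then at 32.0, 34.0 and 41.6 CPM (log2 change -0.92, SE 0.22, adjusted p = 0.0205), a call lost with DESeq2 (adjusted p = 0.145). In that experiment 3 of 9 identity genes tested fell and 0 rose (median -0.50). Among all genes tested, 1.06% fell there and 12.3% in MULTI-seq 3. In MULTI-seq 3, 4 of 12 tested fell (median -0.59), among them Gata6, Prdm1 and Elf3, and Gata6 changed by -0.71 (SE 0.19, adjusted p = 0.00796; 0.0623 in gut-mapped cells alone). Trh fell in MULTI-seq 2 (log2 change -0.58, SE 0.15, adjusted p = 0.0474), a call lost with DESeq2 (adjusted p = 0.743).

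Cdx2 was the posterior gene that rose in both. Its levels in MULTI-seq 2 were 46.7, 5.00, 21.8 and 53.9 CPM at day 4 and 122, 97.8 and 83.1 CPM at day 4.5. The groups did not overlap, and the log2 change was 1.75 (SE 0.32, adjusted p = 0.00359), though DESeq2 gave an adjusted p of 0.442. In MULTI-seq 3 it ran from 9.52 to 58.2 CPM (median 37.2) at day 4 and from 35.7 to 157 CPM (median 96.0) at day 4.5, a log2 change of 1.63 (SE 0.27, adjusted p = 6.03e-05). Of the 16 posterior and hindgut genes, the expression filter left 1 in MULTI-seq 2 and 4 in MULTI-seq 3, and Cdx2 was the 1 called in each.

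The Hedgehog ligand Shh and its receptor rose in both experiments. Shh was at 13.7, 5.00, 15.8 and 14.7 CPM and then at 39.6, 40.4 and 13.9 CPM in MULTI-seq 2 (log2 change 1.47, SE 0.36, adjusted p = 0.0316). In MULTI-seq 3 its median was 5.88 CPM (1.67 to 23.6) and then 34.2 CPM (15.3 to 78.1), a log2 change of 2.01 (SE 0.42, adjusted p = 0.000811). Ptch1, its receptor and a target of the pathway, changed by 0.98 (SE 0.19, adjusted p = 0.00615) and 0.84 (SE 0.31, adjusted p = 0.0481). In MULTI-seq 3, DESeq2 did not call Ptch1 (adjusted p = 0.0974), and Gli3, an effector, rose by 0.77 (SE 0.21, adjusted p = 0.00645). Of 5 Hedgehog genes tested, 2 rose in MULTI-seq 2 and 3 in MULTI-seq 3, and 0 fell. Among all genes tested, 0.836% and 14.2% rose. The notochord markers, which include Shh and T, also moved up as a list. In MULTI-seq 2, 3 of 3 tested were positive, with T and Shh called (median 1.13). In MULTI-seq 3, 3 of 4 tested were positive and 1 negative, with Shh and Chrd called (median 0.77).

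The epithelial list moved in both directions. Krt19, an intermediate filament gene of simple epithelia, was at 16.1, 13.8, 24.3 and 24.5 CPM and then at 57.9, 38.3 and 83.1 CPM in MULTI-seq 2 (log2 change 1.60, SE 0.28, adjusted p = 0.00304). It changed by 1.70 (SE 0.22, adjusted p = 2.01e-06) in MULTI-seq 3, where the groups did not overlap, as for 3.47% of genes. There Cldn4, Cldn6, Krt7 and Spint2 rose with it, and Cdh1, Vim and Esrp1 fell, of 18 tested (median 0.04). Of all genes tested there, 14.2% rose and 12.3% fell. Cdh2 (N-cadherin) fell in MULTI-seq 2, from 113, 194, 196 and 172 CPM to 104, 93.5 and 93.5 CPM (log2 change -0.76, SE 0.19, adjusted p = 0.0273; 0.0524 with DESeq2).

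Growth and patterning genes also moved. Cdkn1c, an imprinted inhibitor of cyclin-dependent kinases, rose by 1.64 (SE 0.20, adjusted p = 7.65e-05) in MULTI-seq 2 and by 1.20 (SE 0.23, adjusted p = 0.000282) in MULTI-seq 3. In MULTI-seq 3, 4 of 11 cell cycle genes fell, among them Mki67 (-0.79, SE 0.10, adjusted p = 1.97e-06) and Top2a (-0.50, SE 0.11, adjusted p = 0.000934), with a list median of -0.16. For this and the other lists of that experiment, the shares over all genes were 14.2% risen and 12.3% fallen. In MULTI-seq 2 none of the 11 passed as lower, with 8 negative and a median of -0.18; the difference between the experiments was not tested. Cyp26a1, which degrades retinoic acid, fell by 2.56 in MULTI-seq 3 (SE 0.57, adjusted p = 0.00144), and Pax9, a pharyngeal endoderm factor, rose by 1.72 (SE 0.34, adjusted p = 0.000437). Pax9 was 1 of 9 anterior and foregut genes tested there, of which 6 were negative (median -0.76), and Sfrp1, a secreted Wnt antagonist, fell by 1.57 (SE 0.30, adjusted p = 0.000335). Of 8 imprinted genes, Cdkn1c and Mest rose and Meg3, Rian, Peg3 (-0.88) and Grb10 (-0.60) fell. Id3, a BMP target, rose in both, and Spry2 and Dusp6, feedback inhibitors of FGF signalling, rose in MULTI-seq 3. Of the 9 FGF pathway genes tested in MULTI-seq 3, 4 were positive and 5 negative (median -0.11), and Fgf5 fell. Of the 58 genes that the naming rule chose for this comparison in MULTI-seq 3, 19 lost the call without at least 1 lane: besides Eomes, these included Tdgf1 (without lane A, B or C of the day 4.5 pool, adjusted p up to 0.296), Pou5f1 and Cldn4 (lane C), Cdh1 and Id3 (lane B), Gli3, Esrp1 and Dusp6 (B or C), Vim (A or C of that pool, C or D of the day 4 pool), Ptch1 (A, or B of the day 4 pool), Meg3 (A, B or C, or C of the day 4 pool), Rian (A or C) and Grb10 (B or C; -0.34 without C). With a minimum of 5 cells Eomes, Tdgf1, Ptch1 and Meg3 also lost it, and with gut-mapped cells alone Gata6, Krt7, Meg3 and Rian. With a minimum of 5 endoderm cells, 16 of the 30 genes named in MULTI-seq 2 kept the call, and the others that had a value there lost it. These 12 were Sox17 (adjusted p = 0.0839), Cdx2 (0.0812), T (0.239), Trh, Cdh2, Id3, Spink1, Car4, Fth1, Pcbd1, Lima1 and Ldha.

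The genes with the smallest p-values were mostly of other kinds. In MULTI-seq 2 Igfbp5, Malat1, Ccnd1, Cd9, Fbn2, Hes5 and Upk3a rose with Cdkn1c (Ccnd1 not with DESeq2, adjusted p = 0.0518), and Fth1, Pcbd1, Tdgf1, Spink1, Car4, Prxl2a, Lima1 and Ldha fell. Spink1, the gene with the largest ratio to other types, went from 1240, 1757, 1042 and 613 CPM to 543, 465.6 and 599 CPM (log2 change -1.15, SE 0.19, adjusted p = 0.00179), a call lost with DESeq2 (adjusted p = 0.128). In MULTI-seq 3 Rpl37a, Mdk, Smdt1, Eny2, Rps29, Rps28 and Ost4 rose by 0.40 to 0.83, and Tnks2, Pls3, Dhx9, Tnks, Ncapg, Smc5 and Paics fell. Ribosomal protein genes such as Rps29 also rose in the other cells of the same gastruloids (0.41 in endoderm and 0.48 elsewhere).

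The 2 experiments share no gastruloid, so their changes could be set side by side. Of the 125 genes called in MULTI-seq 2, 103 (82.4%) had the same sign in MULTI-seq 3. The 70 called in both were 56% of the MULTI-seq 2 calls, where 26.4% of all genes tested in MULTI-seq 3 were called. They were 2.66% of the MULTI-seq 3 calls, where 1.9% of all genes tested in MULTI-seq 2 were called. Of the 70, 68 moved in the same direction, 40 up and 28 down. Of the MULTI-seq 3 calls tested in MULTI-seq 2, 1310 of 2191 (59.8%) had the same sign there. The same-sign share over all genes is not given here, and the MULTI-seq 3 days came from different pools.

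**Figure D5:**
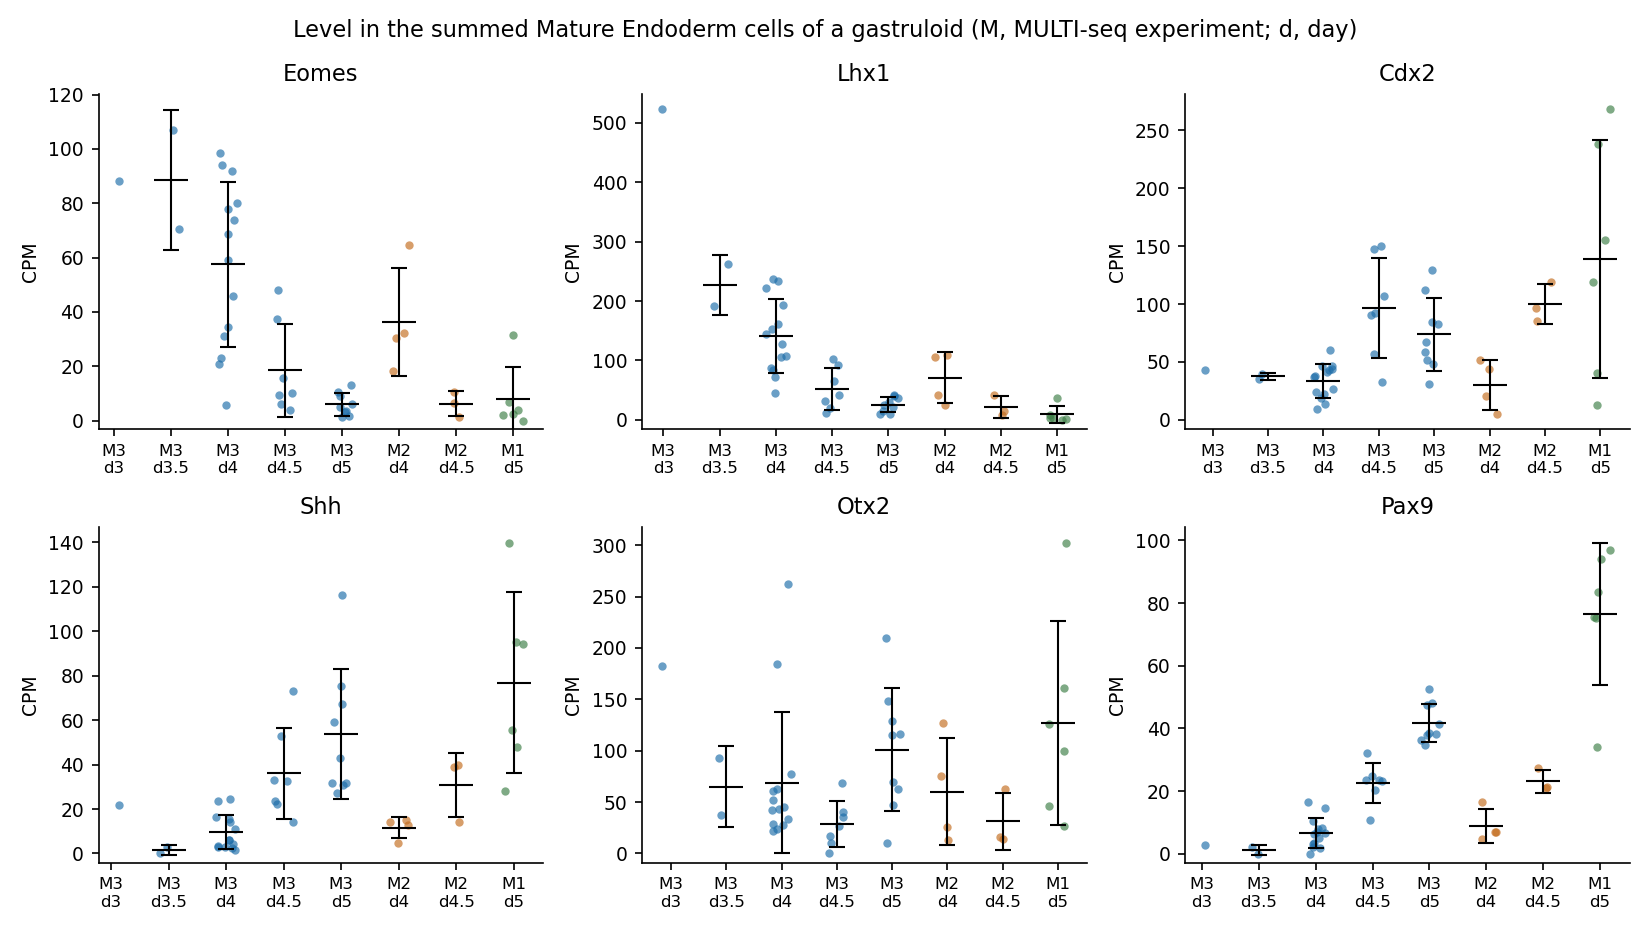
CPM (y axes) of 6 regional and streak genes in the summed Mature Endoderm cells of each gastruloid with at least 10 such cells, by experiment (M, MULTI-seq) and day (d); points are gastruloids, bars the mean and SD. Eomes and Lhx1 are highest on the early days, and the mean of Pax9 at day 5 of MULTI-seq 3 is 41.7 CPM against 6.63 at day 4.

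From day 4.5 to day 5 in MULTI-seq 3, few genes passed: Pax9, Otx2 and Isl1 rose in endoderm, and Sox17, Sp5 and Nkd1 fell. In all, 53 genes rose and 83 fell (9 gastruloids against 7), 0.634% and 0.992% of 8363 tested, or 1.63% in either direction. The count was small and depended on single lanes: 47, 32 and 9 genes were called without lane A, B and C, and 21 of the 24 genes that the naming rule chose for this comparison lost the call without at least 1 lane. Pax9, Isl1, Sox17 and Grb10 lost it without each of the 3 lanes (adjusted p 0.0502 to 0.669), Otx2, Masp1, Wnk3, Srsf5 and Fmc1 without lane B or C, Nkd1 and Prdx6 without A or C, Msx1 without A or B, Sp5 without B, and Peg3, Peg10, Sobp, Eno3, Cdh2, Prag1 and Zfp703 without C. With gut-mapped cells alone, Otx2, Isl1, Sox17, Nkd1 and Grb10 lost it. This comparison and that of day 4.5 with day 4 share the day 4.5 gastruloids.

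Pax9 ran from 11.1 to 32.8 CPM (median 23.4) at day 4.5 and from 36.8 to 53.9 CPM (median 38.9) at day 5. The groups did not overlap, as for 0.239% of genes, and the log2 change was 0.79 (SE 0.14, adjusted p = 0.00367). Otx2 had a median of 28.1 CPM (0 to 71.3) and then 114 CPM (10.8 to 207), a log2 change of 1.78 (SE 0.41, adjusted p = 0.0233) that DESeq2 did not call (adjusted p = 0.106). Isl1, a LIM homeobox factor of foregut, rose by 1.44 (SE 0.38, adjusted p = 0.0496). These were the 3 of 7 anterior and foregut genes tested that passed, and 0 fell (median 0.79, all genes -0.00353). Over all genes tested, 0.634% rose and 0.992% fell, and each of the 3 lost the call without at least 1 lane.

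Sox17 ran from 228 to 336 CPM (median 293) and then from 190 to 255 CPM (median 232), a log2 change of -0.36 (SE 0.08, adjusted p = 0.0224). The Wnt targets Sp5 (-0.75, SE 0.13, adjusted p = 0.00359) and Nkd1 (-1.003, SE 0.23, adjusted p = 0.0244) fell, 2 of 7 tested (0 rose, median -0.28). For this and the imprinted list, the shares over all genes were 0.634% risen and 0.992% fallen. Msx1, a BMP target, fell by 1.97 (SE 0.40, adjusted p = 0.00959). Of the imprinted genes Peg3 and Grb10, both lower at day 4.5 than at day 4, rose by 0.81 and 0.67 (adjusted p = 0.00363 and 0.0363), 2 of 8 tested, though Grb10 stood at 0.36 without lane C (adjusted p = 0.669), while Peg10, outside that list, fell by 1.33 (SE 0.17, adjusted p = 0.000204).

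Among the other genes of smallest p, Sobp, Eno3, Prdx6, Masp1 and Wnk3 rose, and Ppp1cb, Ppp1r14c, Srsf5, Prag1, Zfp703 and Fmc1 fell. Sobp was at 0 to 6.48 CPM and then at 9.27 to 24.6 CPM, with no overlap (log2 change 2.21, SE 0.33, adjusted p = 0.00115), and it lost the call without lane C (adjusted p = 0.280).

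At day 5, the smallest p-values between endoderm of MULTI-seq 3 and MULTI-seq 1 were mostly those of ribosomal protein and mitochondrial genes. In MULTI-seq 3, 781 genes were higher and 431 lower (9 gastruloids against 6), 9.36% and 5.17% of 8344 tested, or 14.5% in either direction; 5.63% of genes did not overlap between the groups. The count was 792 without lane 3 of MULTI-seq 1. The 8 with the smallest p on the higher side were Pfn1 and ribosomal protein genes; Rps29 ran from 4029 to 4636 CPM in MULTI-seq 3 and from 1464 to 1623 in MULTI-seq 1 (log2 difference 1.48, SE 0.05, adjusted p = 2.72e-17). The 8 on the lower side were mitochondrial; mt-Atp6 ran from 3348 to 3930 CPM against 9757 to 10760 CPM (log2 difference -1.47, SE 0.05, adjusted p = 9.32e-18). In the other cells of these gastruloids the log2 differences of Rps29 and mt-Atp6 were 1.49 and -1.62, and 1117 of the 1212 genes called in endoderm (92.2%) were called in the same direction there, against 2917 of the 7132 not called in endoderm (40.9%). Experiment, depth and mitochondrial share move together here and cannot be told apart.

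Among endoderm genes, Foxa2 was lower in MULTI-seq 3 (-0.39, SE 0.10, adjusted p = 0.00967), and Epcam (0.42, SE 0.10, adjusted p = 0.00520), Cldn7 (0.59, SE 0.14, adjusted p = 0.00314), Spint2 and Cdh2 were higher, 4 of 17 epithelial genes tested. Cdh2 lost the call without lane 3 of MULTI-seq 1 (adjusted p = 0.149). For this and the other lists here, 9.36% of all genes tested were higher and 5.17% lower. Only 3 of 11691 genes differed from the other cells of these gastruloids, so the differences here are not given as particular to endoderm. Pax9 was lower, with a median of 41.5 CPM against 74.2 CPM (-0.71, SE 0.15, adjusted p = 0.00119). Hoxa7, a posterior homeobox gene, was lower by 1.72 on the log2 scale (SE 0.44, adjusted p = 0.00815), 1 of 5 posterior genes tested (median -1.28; all genes -0.0298). Lhx1 and Apoe were higher in MULTI-seq 3, by 2.04 (SE 0.62, adjusted p = 0.0265) and 1.45 (SE 0.27, adjusted p = 0.000337). With a minimum of 5 cells the Apoe difference was 0.76 and did not pass (adjusted p = 0.100).

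Whether a change was larger or smaller than in the other cells of the same gastruloids was tested as an interaction. From day 4 to 4.5 it passed for 72 genes in MULTI-seq 2 (0.645% of 11155) and for 1357 in MULTI-seq 3 (10.5% of 12939), of which 416 changed more positively in endoderm and 941 more negatively; with relative log expression factors the split was 487 and 665. It passed for 61 genes from day 4.5 to 5 (0.502% of 12148) and for 3 between the experiments at day 5 (0.0257% of 11691). The model held the gastruloid as a block. The other cells were summed over all their types, so their change mixes change within cells with change in type shares. Between days 4 and 4.5 of MULTI-seq 3, 11 of 17 cell types tested passed as changed in share. Those days also came from different pools. Ptch1 rose in endoderm relative to the other cells in both experiments, by 1.34 (adjusted p = 0.0172) and 1.22 (adjusted p = 0.000204), and Krt19 did so in MULTI-seq 3, by 2.14 (adjusted p = 0.0252). In MULTI-seq 2, Krt19 was too low in the other cells to be tested there. Shh differed by 6.72 in MULTI-seq 2 (adjusted p = 0.000516), where its change in the other cells was -5.84 (adjusted p = 0.0798), and Cdh1 differed by 1.72 in MULTI-seq 3 (adjusted p = 0.0118), where it fell in endoderm by 0.37 and by 2.32 elsewhere. Eomes and Lhx1 fell less in endoderm than in the other cells of MULTI-seq 3, by 3.28 (adjusted p = 0.0167) and 1.89 (adjusted p = 0.00717).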

How the data were processed

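Droplet 3' RNA libraries were aligned and counted with Cell Ranger 6.0.0 on mm10 and handled with Seurat, per the submitters' processing notes; the deposited lane matrices hold raw UMI counts. Cell type, mapped embryo type, day and gastruloid barcode came from the authors' deposited annotation, whose mapping score is a fraction of 0 to 1 that no result used. Files of 18 lanes were used, of 22 samples. Gastruloids with at least 30 cells entered shares, and those with at least 10 endoderm cells entered gene tests. Shares were compared by 2-sided permutation tests (100000 permutations, smallest p 1e-05), adjusted over cell types by Benjamini-Hochberg. Summed counts were tested with edgeR 4.0.16 (quasi-likelihood, TMM, R 4.3.3); DESeq2 1.42.0 was an alternative. Endoderm was also set against the other cells of the same gastruloids in an interaction model with the gastruloid as a block. Genes named were the 8 with the smallest p in each direction, with listed genes that passed, and the 15 leading genes; results of some of these genes are not reported here. Members and the 23 lists were chosen with earlier results of these data known. The gap rule for correlations was tightened after a wider-gap version had been run and seen. Tests were checked on simulated counts. Separate cultures are not named, so p-values measure the spread between gastruloids of 1 or few differentiations.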

Additional observations from a re-analysis of the deposited data

Results flagged for a closer look

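Of 92 sets of 4 to 10 gastruloids, 10 held 1 value far from the others by Dixon's test. Chance gives that in about 1 set in 20, a rate that does not apply where the other values are all or mostly 0, as for several mapped types, so the 10 cannot be read against it. At day 4 of MULTI-seq 2, a single gastruloid had both foregut-mapped (3.23%) and hindgut-mapped endoderm (3.23%), each 1 of its 31 endoderm cells against 0 in the others, and 1 had Foxa2 at 178 CPM. At day 4.5 of MULTI-seq 3, 1 gastruloid had 53.8% streak-mapped, 1 had 10.5% foregut-mapped and 1 had 2.38% thyroid-mapped endoderm (1 of 42 cells, against 0 in the others). At day 5 of MULTI-seq 3, 1 had 6.90% mapped to visceral endoderm. In MULTI-seq 1, single gastruloids stood apart with Eomes at 31.4 CPM, Lhx1 at 37.7 CPM and Pax9, lower than the others, at 34.0 CPM.

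Endoderm cells changed differently from the other cells of the same gastruloids for 61, 72, 1357 and 3 genes in the comparisons of day 5 with day 4.5, day 4.5 with day 4 in MULTI-seq 2, the same in MULTI-seq 3, and the experiments at day 5. The values that follow are log2 differences between the change in endoderm and in the other cells, each past an adjusted p of 0.05 in edgeR's interaction test. The other cells were summed over all types, so changes in their type shares enter these values. From day 4.5 to 5 they included Sobp (2.03), Peg3 (0.82), Prdx6 (0.39), Masp1 (3.61), Wnk3 (0.74), Peg10 (-1.51), Ppp1cb (-0.63), Prag1 (-0.77), Zfp703 (-1.28), Sox17 (-1.90), Cdh2 (-0.57), Isl1 (1.97) and Msx1 (-2.03). From day 4 to 4.5 in MULTI-seq 2 they included Cdkn1c (1.03), Malat1 (0.55), Cd9 (1.55), Fth1 (-0.70), Pcbd1 (-2.09), Spink1 (-2.24), Lima1 (-2.20), Cdh2 (-0.91), Krt19 (4.56), Shh (6.72) and Ptch1 (1.34). From day 4 to 4.5 in MULTI-seq 3 they included Mdk (0.26), Rps29 (-0.12), Rps28 (-0.12), Pls3 (-1.01), Ncapg (-0.87), Paics (-0.23), Gata6 (1.60), Eomes (3.28), Lhx1 (1.89), Cdh1 (1.72), Cldn4 (4.41), Krt19 (2.14), Esrp1 (2.98), Ptch1 (1.22), Gli3 (0.69), Id3 (1.11), Spry2 (1.07), Dnmt3b (-0.95) and Cdkn1c (0.75). Of these, Spink1 and Krt19 in MULTI-seq 2 were too low in the other cells to be tested there, so their values rest on the endoderm cells; that of Shh includes a change of -5.84 in the other cells (adjusted p = 0.0798). Between the experiments at day 5 mt-Co2 differed (0.25).

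Endoderm cells were also present in lanes without gastruloid barcodes, which no comparison used: 1.77% of the day 3 lane of the 10X experiment (54 of 3058 cells), 2.30% of its day 4 lane (56 of 2440), and 2.50% and 2.51% of both lanes of pool C of MULTI-seq 2 (71 of 2835 and 57 of 2271).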

How the results depend on the processing

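No paired analysis was possible because replicate numbers in the labels name lanes that split a pool, not matched gastruloids; the tests against the other cells held the gastruloid as a block. Gene results chosen by the naming rule kept direction in all 1336 recomputed values. Of these, 1199 kept the call and 137 lost it. Values without an adjusted p were not counted. With DESeq2 in MULTI-seq 2, 15 of the 30 named genes kept the call and 9 lost it. The others had no adjusted p there, so a gene given above without a DESeq2 value need not have kept its call. With a minimum of 100 cells the MULTI-seq 2 share change from day 4 to 4.5 was -5.02 percentage points (adjusted p = 0.0269), and without lane 2 of pool B -4.11 (lowest; highest -3.61). In MULTI-seq 3 that change was -3.15 by mapped type and -1.23 as edgeR's log2 fold change, and -4.59 to -4.22 without single lanes; at day 5 the difference to MULTI-seq 1 was 2.21 by mapped type (adjusted p = 0.0490). Gene counts for day 5 against day 4.5 were 242 without the expression filter, 60 in gut-mapped cells and 9 to 47 without single lanes. For MULTI-seq 2 they were 229 without the filter, 44 with DESeq2 and 75 with a minimum of 5 cells. For day 4.5 against day 4 of MULTI-seq 3 they were 1602 to 2494 without single lanes, and for day 5 between experiments 792 to 1226. Genes differing from the other cells at day 5 between experiments numbered 1 with relative log expression factors and 1 with a minimum of 20 cells.

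The relation to neural share among the low-neural gastruloids of day 4 turned from 0.01 to -0.0897 with shares of all cells; neither value passed. The rule that splits gastruloids into clusters was changed after its results had been seen: under the first rule (a gap over 50% of the range, 3 on each side) 22 of 24 relations pooled all gastruloids of a group and 15 passed, against 7 as reported. The relation of endoderm share to its streak-mapped share was also recomputed after seeing the data, giving -0.62 with at least 5 endoderm cells and -0.52, without a call, with at least 20. At day 4.5 of MULTI-seq 3, the relation to somites was 0.24, without a call, among the 9 gastruloids above the widest gap in the somite share, an alternative added after seeing the data. The causes were not tested. Not run were the gene test of day 4 against day 3.5 of MULTI-seq 3, where 2 gastruloids had enough endoderm at day 3.5, a minimum of 20 cells in the comparisons between days, and, for gene tests only, gut-mapped cells and lane omissions for MULTI-seq 2 and lane 2 of MULTI-seq 1 left out.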

Other observations

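In the day 3 lane of the 10X experiment, 17 endoderm cells were mapped to visceral endoderm and held Trh at 4481 CPM, Sox17 at 486 CPM and Ttr at 2.73 CPM (1 UMI), with 0 UMIs of Afp, which for counting error only allows up to 8.18 CPM. That lane has 1 library and no gastruloid barcodes, so these are single values.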
